A study of Mus musculus with 27 samples.

Results

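Collagen genes were described across the developing mouse optic stalk. The members are the protein-coding genes whose symbol has the form of Col, a number, a and a number, and which passed a filter of over 10 counts in 3 or more of the 27 libraries. Of 44 such symbols in the count table, 35 passed, out of 16330 genes that passed the same filter and 55487 genes in the table. By class, 9 of 11 fibrillar genes passed, 8 of 8 basement membrane genes, 8 of 9 FACIT genes (collagens that attach to fibrils), 4 of 6 type VI genes, 2 of 4 network and anchoring genes, 3 of 4 transmembrane genes and 1 of 2 others. RNA came from laser-captured dorsal, ventral and retinal ganglion cell axon regions of the optic stalk at embryonic day 14, from the same 4 control and 5 Smarcc1-DCT-cKO embryos on a C57Bl6/J background. The mutants carried Baf155 loxP/loxP (Baf155 is Smarcc1, a core member of the chromatin remodeller SWI/SNF), the Dct-Cre transgene and the Z/EG reporter, and the controls were littermates without Dct-Cre. Dct-Cre acts in the retinal pigment epithelium (RPE) and in the optic stalk, dorsally before ventrally. Libraries of a genotype with the same number were taken as 1 embryo. Control embryo 1 and mutant embryos 1 to 3 formed batch A, and the other embryos batch B.

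Collagens are secreted proteins of helical chains that give the extracellular matrix its shape. Fibrillar chains such as those of Col1a1, Col1a2 and Col3a1 build the fibrils of mesenchyme and connective tissue, type IV chains build the sheet of basement membranes, and type VI chains form beaded filaments. Around the embryonic eye most fibrillar collagen comes from the periocular mesenchyme, while neuroepithelium and blood vessels lie on basement membranes, and Col2a1 and Col9a1 are also known from the embryonic eye as vitreous and retinal collagens. In bulk tissue, fewer cells of a type and less RNA per cell cannot be told apart.

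Of the 35 members, 26 had an upstream window in the RefSeq table (build GRCm38.p6), and windows were read 5′ to 3′ on the gene's strand. The 150 bases before the starts of Col3a1 and Col8a1 are shown because these genes had dorsal genotype differences of opposite sign, each at an unadjusted p under 0.05. Capitals mark TATAAA. The Col3a1 stretch is at chr1:45311388-45311537 (plus strand) and the Col8a1 stretch at chr16:57754738-57754887 (minus strand).
Col3a1: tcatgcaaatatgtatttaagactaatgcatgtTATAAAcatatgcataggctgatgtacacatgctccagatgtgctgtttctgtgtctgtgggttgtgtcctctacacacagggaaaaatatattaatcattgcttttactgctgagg
Col8a1: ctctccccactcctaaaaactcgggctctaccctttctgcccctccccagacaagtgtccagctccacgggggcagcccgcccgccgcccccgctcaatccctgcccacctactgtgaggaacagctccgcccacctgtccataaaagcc
TATAAA, searched on both strands over 250 upstream bases, was in the windows of Col3a1 and Col13a1, 2 of the 26 members (7.69%), against 12.4% of 32851 windows. CCAAT, searched in the same way, was in 9 of 26 members (34.6%), against 33.8% of windows. A member was counted if any of its windows held the motif (29 windows for 26 members), so shares of members and of windows are not the same measure. These matches describe the letters in the windows only.

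Several type IV genes lie head to head, and the bases at 2 such places are shown because both genes of each pair are members. Col4a2 (plus strand) and Col4a1 (minus strand) start 21 bases apart, and capitals run from the Col4a2 start to the Col4a1 start at chr8:11312801-11312830, plus strand. The 2 genes overlap over these capital bases, and 0.295% of the exonic bases of Col4a1 are shared with Col4a2. The stretch between the starts of Col4a4 (minus strand) and Col4a3 (plus strand) is at chr1:82586850-82586920, plus strand, and these starts are 72 bases apart.
Col4a2 and Col4a1: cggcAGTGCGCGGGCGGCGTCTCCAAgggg
Col4a4 and Col4a3: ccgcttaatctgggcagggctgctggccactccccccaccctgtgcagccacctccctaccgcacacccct
Col4a6 (minus strand) and Col4a5 (plus strand) are also head to head, with starts 1309 bases apart on chromosome X. Other neighbouring members are not head to head. Col3a1 (plus strand) and Col5a2 (minus strand) run toward each other, with starts 191744 bases apart on chromosome 1. Col6a2 and Col6a1 are both on the minus strand, with starts 102538 bases apart on chromosome 10.

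The library totals ranged from 10.9 to 34.0 M counts (M, mega), so a gene at 0 could lie at up to 0.0883 to 0.275 CPM (counts per M counts, 3 counts of the total). That limit covers counting error only, since the amplified reads carry no molecular identifiers. Smarcc1 itself measured 116, 75.9, 289 and 97.2 CPM in the dorsal controls and 94.9, 107, 2.26, 44.3 and 24.5 CPM in the dorsal mutants, which overlap. In the ventral region it ranged from 75.7 to 198 CPM in controls and 14.7 to 64.4 CPM in mutants, and in the axon region from 50.1 to 242 CPM and 1.86 to 44.9 CPM, without overlap in either. Optic stalk and astrocyte progenitor markers were present in every group, with sums from 853 CPM in a dorsal mutant to 8206 CPM in an axon control, and neuronal markers were at 1182 to 1577 CPM in axon controls and 805 to 2133 CPM in axon mutants. Levels of single genes were uneven between libraries, and 8 of the 35 members had a count in all 27 libraries (Col11a1, Col18a1, Col1a2, Col2a1, Col4a1, Col4a2, Col4a5 and Col9a1).

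Collagen RNA was most abundant in the dorsal controls, where the 35 genes summed to 2749, 4679, 11161 and 3322 CPM in embryos 1 to 4. The dorsal mutants held 1407, 600.3, 1494, 869 and 1048 CPM in embryos 1 to 5. All 5 mutants lay below all 4 controls, and control 3 stood apart from the other controls. The means were 5478 ± 3874 CPM (SD, n = 4) and 1084 ± 372 CPM (SD, n = 5), and without control 3 the control mean was 3583 ± 991 CPM (SD, n = 3). In the ventral region the sum was 1479.9, 1704, 2649 and 1666 CPM in controls and 970.2, 824, 875, 1148 and 1021 CPM in mutants, again without overlap. The axon regions did not separate, at 1244 to 2798 CPM in controls and 1377 to 3044 CPM in mutants. No test was made on these sums.

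**Figure D1:**
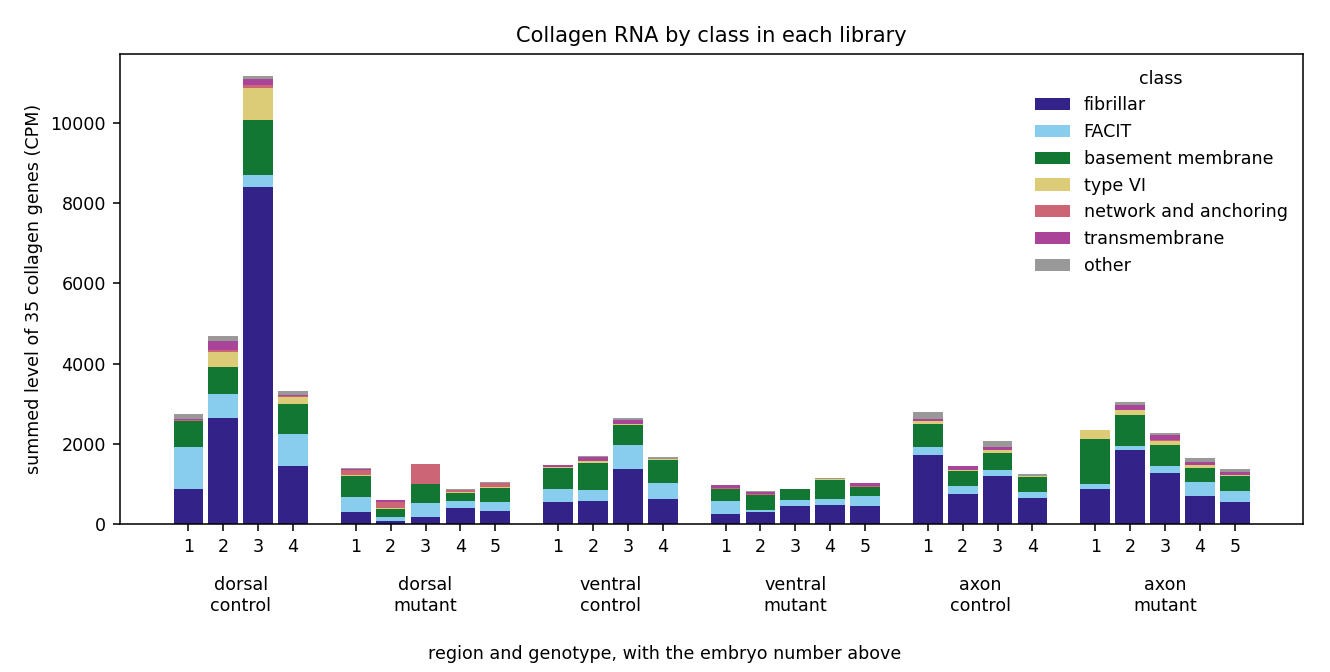
Summed level of the 35 collagen genes in each of the 27 libraries, in counts per M counts (CPM, y axis), split by class (colours) and ordered by region and genotype with the embryo number below each bar. The tallest bar is dorsal control 3 at 11161 CPM, and the 5 dorsal mutants lie between 600.3 and 1494 CPM.

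Levels of different genes were compared after division by exonic length (mean CPM per kb). In dorsal controls Col3a1 had the highest mean at 161 CPM per kb, before Col9a1 at 110.3 and Col1a2 at 57. That order rested on control 3, since without it Col9a1 was first at 139 CPM per kb and Col3a1 next at 69.9. In dorsal mutants Col9a1 led at 40.2 CPM per kb, before Col8a1 at 23.2 and Col18a1 at 22.1. Col9a1, Col2a1 and Col18a1 led in ventral controls, Col9a1, Col18a1 and Col2a1 in ventral mutants, and Col3a1, Col9a1 and Col18a1 in both axon groups. As a share of all collagen counts, the fibrillar class took 51.9% ± 18.5 (SD, n = 4) in the dorsal controls and, among the mutants of that region, 25.1% ± 14.6 (SD, n = 5). These shares overlapped, at 32.2 to 75.3% in controls and 12.8 to 47.3% in mutants. The basement membrane class took 18% ± 5.51 (SD, n = 4) and 32% ± 4.96 (SD, n = 5). The network class, which is nearly all Col8a1 in the mutants, took 0.533% ± 0.258 (SD, n = 4) and 16.5% ± 12.4 (SD, n = 5), with all 5 mutants above all 4 controls.

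**Figure D2:**
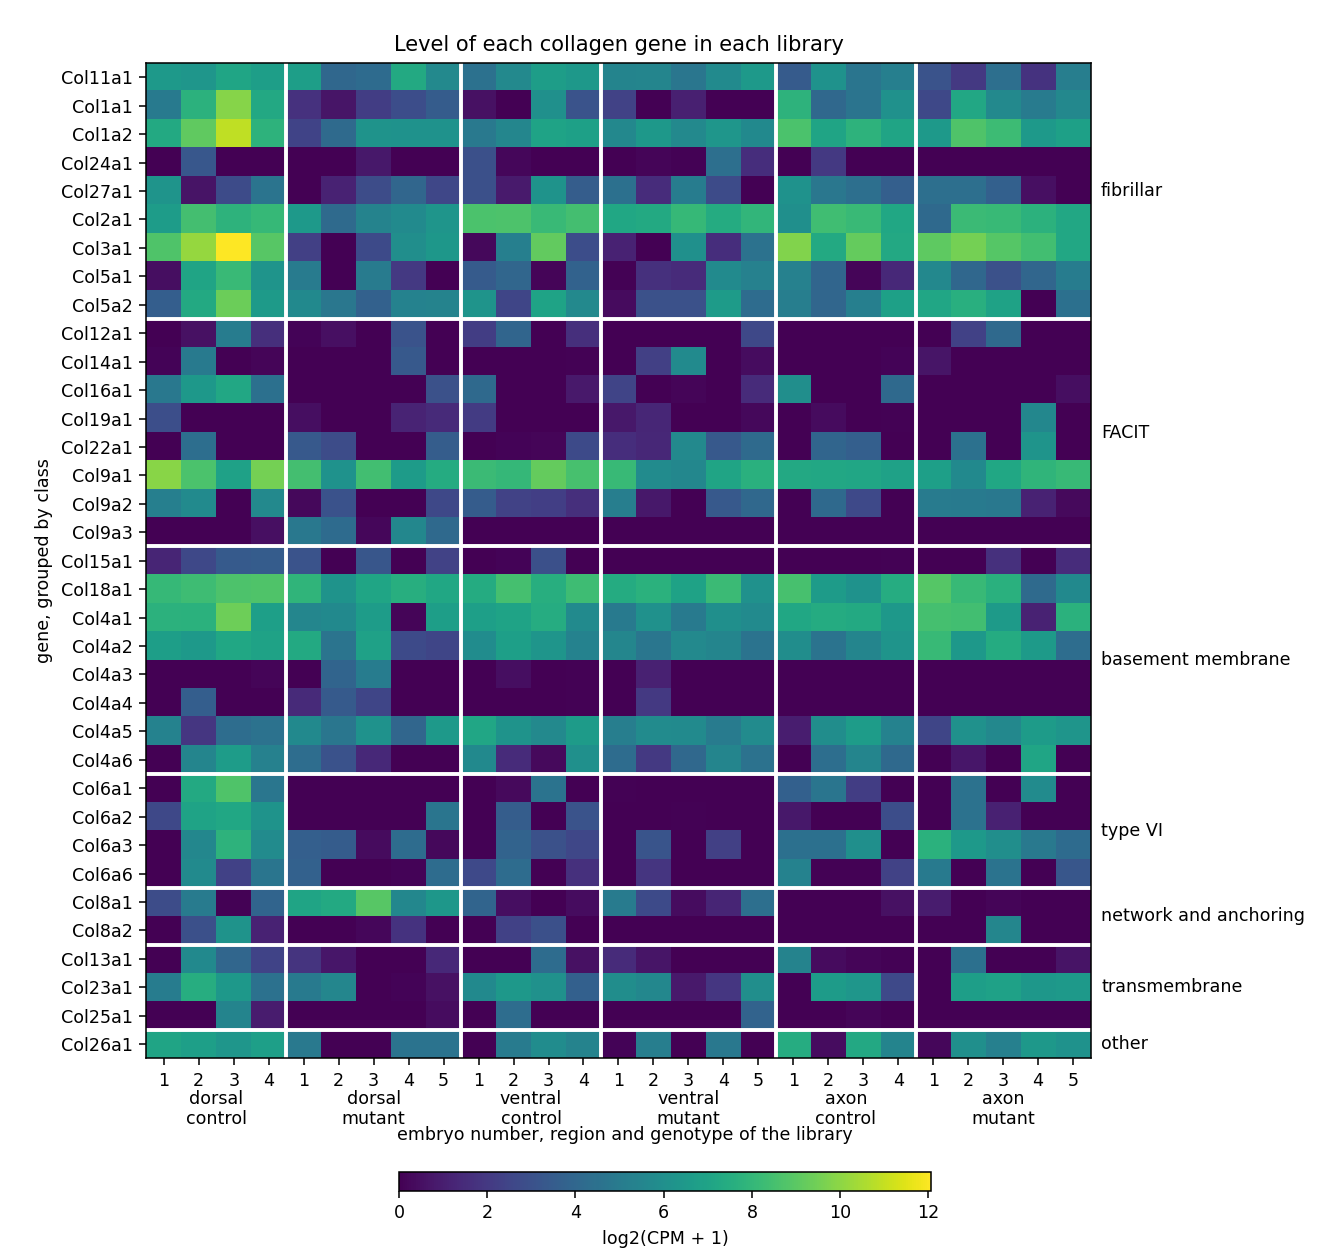
Level of each of the 35 members (rows, grouped by class) in each of the 27 libraries (columns, grouped by region and genotype), as log2(CPM + 1) on a colour scale from 0 (dark) to 12 (bright). Col3a1 and Col1a2 are brightest in dorsal control 3, Col8a1 is bright in the dorsal mutants, and Col2a1, Col9a1 and Col18a1 are present in every library.

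The first comparison asked how the dorsal stalk of Smarcc1-DCT-cKO embryos differed from that of controls. Of the 9 fibrillar genes, Col1a1, Col3a1, Col1a2 and Col2a1 lay lower in every dorsal mutant than in any control and the other 5 overlapped, and Col8a1 lay higher in every mutant. None of the 35 members was called by edgeR at an adjusted p under 0.05 with a log2 fold change beyond 0.58 in either direction, where 2 of 16145 genes were called (0.0124%). At an unadjusted p under 0.05, 10 members were lower and 2 higher, against 2.68% of all genes in each direction. The lower ones were 4 of 9 fibrillar, 2 of 8 FACIT, 2 of 8 basement membrane and 2 of 4 type VI genes, and the higher ones were Col8a1 and the FACIT gene Col9a3. DESeq2, an alternative test, called 9 members (1 higher and 8 lower, against 1.1% and 2.2% of genes). The higher one was Col9a3 (DESeq2 adjusted p 0.00037), and Col8a1 was not called (DESeq2 adjusted p 0.141). edgeR without its legacy setting called 3 (Col1a1, Col1a2 and Col3a1), against 0.248% of genes. In 8 members all mutants lay below all controls (Col1a1, Col1a2, Col3a1, Col2a1, Col16a1, Col4a1, Col18a1 and Col26a1), against 1.61% of genes. Col8a1 was the reverse, against 1.31% of genes. The fitted log2 fold change was below 0 for 30 of the 35 members, against 51.4% of genes, with a median of -2.28 against -0.04 for all genes. The fit and the mean CPM differed in sign for Col4a3 and Col4a4, which had fitted values below 0 and higher mutant means, and for Col19a1, which had the opposite. Since members with counts in few libraries pass the count filter only where they are high, these counts describe the members and support nothing further.

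Col1a1, a chain of the main fibrillar collagen (chr11:94936224-94953042, plus strand), had the smallest p. It measured 29.4, 216, 938 and 156 CPM in dorsal controls 1 to 4 and 2.29, 0.596, 3.53, 6.21 and 10.4 CPM in dorsal mutants 1 to 5. Every mutant was below the lowest control, in batch A as in batch B. The log2 fold change was -5.05 ± 0.84 (SE), with an unadjusted p of 6.39e-05 and an adjusted p of 0.103 (edgeR), and leaving out each library in turn gave -5.72 to -4.15, the smallest without control 3.

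Col1a2 encodes the partner chain of Col1a1 (chr6:4504814-4541544, plus strand). Its dorsal controls held 157, 562, 1891 and 223 CPM and its dorsal mutants 4.4, 17.1, 71.7, 70.8 and 69.5 CPM. The groups did not overlap, and mutants 3, 4 and 5 lay within 3 CPM of each other. The edgeR log2 fold change was -3.18 ± 0.87 (SE), with an unadjusted p of 0.00326 and an adjusted p of 0.844, with a range of -3.73 to -2.37 over the left-out libraries, the smallest without control 3.

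Col3a1, which forms fibrils together with type I collagen in soft tissue (chr1:45311538-45349706, plus strand), was at 421, 1143, 4263 and 493 CPM in the dorsal controls, with a mean of 1580.0 ± 1818 CPM (SD, n = 4) that became 686 ± 398 CPM (SD, n = 3) without control 3. The dorsal mutants held 3.85, 0, 5.51, 61.9 and 81.5 CPM. No mutant reached the lowest control, and mutant 2 had no count at all. The edgeR log2 fold change was -5.73 ± 1.21 (SE), with an unadjusted p of 0.00115 and an adjusted p of 0.562. Of its exonic bases, 1.44% are shared with the gene model Gm47302.

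Col2a1, the fibrillar chain of cartilage and vitreous, was at 101, 351, 219 and 272 CPM in dorsal controls and 88.9, 16.9, 41.4, 53.4 and 77.7 CPM in dorsal mutants. The groups did not overlap, and control 1 was near the highest mutant. Its edgeR log2 fold change was -1.69 ± 0.54 (SE), with an unadjusted p of 0.00881 and an adjusted p of 0.918. Unlike Col1a1 and Col3a1, its level in control 3 was within the range of the other controls. The cartilage marker list summed to 24.5 to 75 CPM in dorsal controls and 3.76 to 55 CPM in dorsal mutants, with Matn1 and Ucma at 0 in both groups.

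The minor fibrillar genes varied more. Col5a2, a chain of the type V collagen that regulates fibril size, was at 11.3, 157, 658 and 94.7 CPM in controls and 51.4, 26.7, 12.5, 39.9 and 40.9 CPM in mutants, and its partner Col5a1 at 0.374, 129, 288 and 75.4 CPM and 31.6, 0, 31.9, 2.97 and 0 CPM. Control 1 lay within or below the mutants for both genes, and the unadjusted p was 0.178 and 0.227. Col11a1, which nucleates type II fibrils, overlapped fully, at 90.3, 79.3, 135 and 108 CPM and 108, 15.5, 17.6, 161 and 50.3 CPM, with a log2 fold change of -0.39 ± 0.69 (SE). Col27a1 ranged from 0.558 to 73.5 CPM in controls and from 0 to 14.6 CPM in mutants. Col24a1 had counts in 1 control and 1 mutant.

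**Figure D3:**
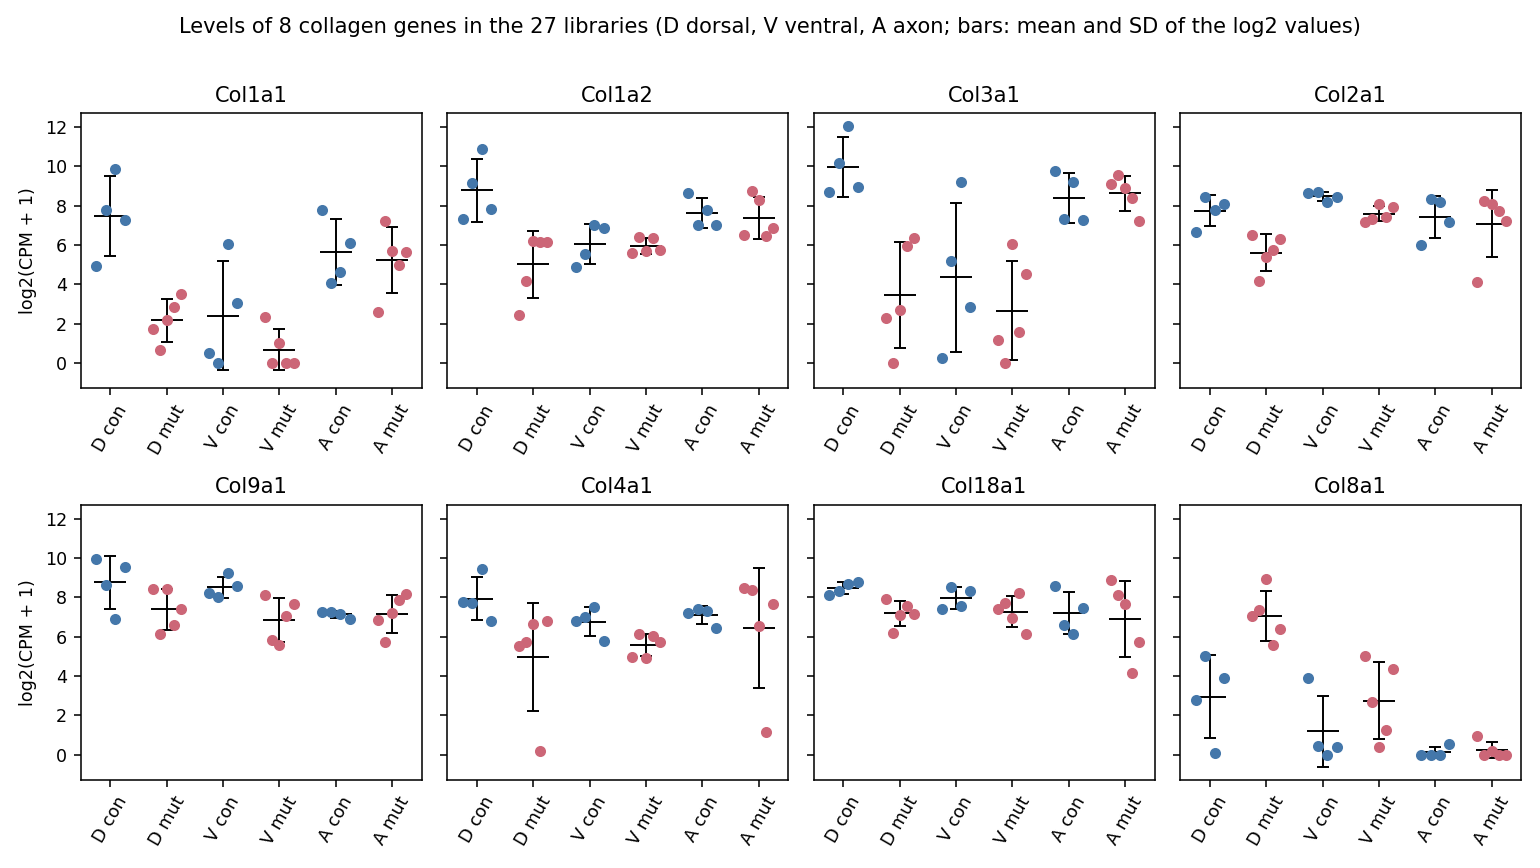
Levels of 8 collagen genes as log2(CPM + 1) in each library, by region (D dorsal, V ventral, A axon) and genotype (con and blue, control; mut and red, mutant), with the mean and SD of the log2 values as black bars (n = 4 controls and 5 mutants). In the dorsal region the points of Col1a1, Col1a2, Col3a1, Col2a1, Col4a1 and Col18a1 lie lower in all mutants than in all controls, and those of Col8a1 higher.

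The summed markers of mesenchyme were lower in the dorsal mutants than in the dorsal controls, as the fibrillar sum was. The 9 fibrillar genes summed to 884, 2647, 8399 and 1446 CPM in dorsal controls and 291, 78, 191, 411 and 335 CPM in dorsal mutants. The 11 mesenchyme markers summed to 637, 1392, 3334 and 991 CPM and 268, 162, 388, 207 and 298 CPM in the same libraries. Neither sum overlapped between the genotypes, and control 3 had the highest value of both. Among the mutants the order differed, since mutant 4 was highest for the fibrillar genes and mutant 3 for the markers. Of the 11 markers, Dcn, Lum and Pdgfra were lower in the dorsal mutants and Ogn was higher at an unadjusted p under 0.05, Twist2 and Prrx2 were at 0 in dorsal controls, and Prrx2 was at 0 in dorsal mutants. Dcn, which encodes the fibril-binding proteoglycan decorin, had a log2 fold change of -3.64 ± 0.57 (SE), unadjusted p 3.64e-05, adjusted p 0.103 (edgeR). Pigment epithelium markers ran the other way, at 4874, 1321, 39.5 and 4889 CPM and 10612, 5764, 12090.0, 3140.0 and 5538 CPM, and control 3 had the lowest value. Optic stalk and astrocyte progenitor markers summed to 2510.1 to 3323 CPM in dorsal controls and 853 to 1721 CPM in dorsal mutants. The part of these markers in the collagen differences was not tested. Without control 3, the dorsal control means were 1659 ± 901 CPM (SD, n = 3) for the fibrillar sum and 1007 ± 378 CPM (SD, n = 3) for the mesenchyme markers.

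**Figure D4:**
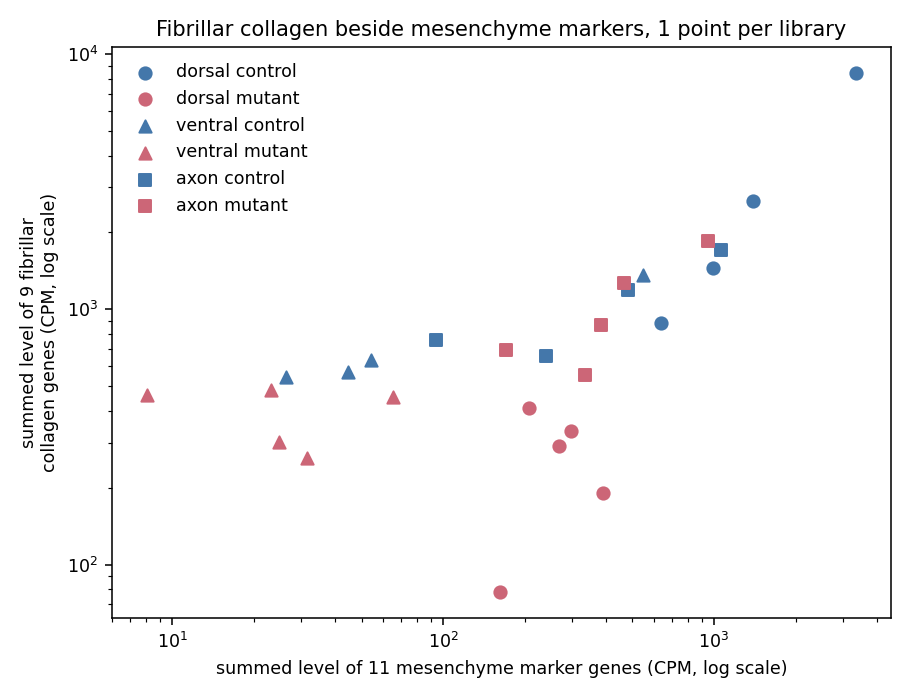
Summed level of the 9 fibrillar collagen genes (y axis, CPM, log scale) against that of the 11 mesenchyme markers (x axis, CPM, log scale), with 1 point per library, colour for genotype (blue control, red mutant) and shape for region. The 5 dorsal mutants lie at 162 to 388 CPM of the markers and 78 to 411 CPM of the fibrillar genes, and the ventral mutants have fewer marker counts at 262 to 483 CPM of the fibrillar genes.

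Among the FACIT genes, Col9a1 and Col16a1 were lower and Col9a3 higher in the dorsal mutants at an unadjusted p under 0.05. Col9a1, a chain of the type IX collagen that coats type II fibrils, measured 980.0, 399.5, 119.9 and 737 CPM in dorsal controls and 344, 69, 339.5, 95.9 and 169 CPM in dorsal mutants. Control 3, the highest for most fibrillar genes, was the lowest control here and lay among the mutants. The log2 fold change of Col9a1 was -1.75 ± 0.54 (SE), with an unadjusted p of 0.00742 and an adjusted p of 0.918 (edgeR). Col16a1 held 27.7, 84.9, 149 and 21.2 CPM in controls and 0, 0, 0, 0 and 6.85 CPM in mutants, detected in mutant 5 only. Its log2 fold change was -6.95 ± 2.13 (SE) with an adjusted p of 0.918, and it moved to -12.44 without mutant 5.

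Col9a3, the third chain of type IX collagen, appeared in the dorsal mutants at 27.3, 17.6, 0.141, 47.2 and 16.4 CPM. The dorsal controls held 0, 0, 0 and 0.404 CPM, and all 18 ventral and axon libraries had no count. The genotypes overlapped through mutant 3, and edgeR gave an unadjusted p of 0.0148 and an adjusted p of 0.918. Of the exonic bases of Col9a3, 6.07% are shared with Tcfl5, and the strand setting of the counting was not given. Its partner Col9a2 was at 35.9, 53, 0 and 49.5 CPM in dorsal controls and 0.183, 7.33, 0, 0 and 5.18 CPM in dorsal mutants, with an unadjusted p of 0.163. Col12a1, Col14a1, Col19a1 and Col22a1 had counts in only some libraries of each dorsal group, with means from 1.59 to 8.86 CPM in controls and 0.681 to 5.19 CPM in mutants.

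Type VI genes were low in the dorsal mutants, at a sum of 0.283 to 43.2 CPM against 5.16 to 798 CPM in controls. Col6a1 measured 0, 159.7, 429 and 25.2 CPM in dorsal controls and had no count in any of the 5 dorsal mutants. The control mean was 154 ± 197 CPM (SD, n = 4), and set against the floor of 3 counts per library, averaged over the group, the mutants were at least 716-fold lower, or at least 287-fold lower without control 3. Control 1 was also at 0, so the groups overlapped, and the adjusted p was 0.272 (edgeR). Col6a2 was at 5.16, 129, 143 and 71.1 CPM in controls and had counts in mutant 5 alone, at 24.9 CPM, with an unadjusted p of 0.0153 and an adjusted p of 0.918. Col6a3, a long chain of this type, was at 0, 46.4, 222 and 55.2 CPM in controls and 11.6, 10.4, 0.283, 17.9 and 0.199 CPM in mutants. Col6a6 was at 0, 53.5, 3.95 and 25 CPM and 12.3, 0, 0, 0.069 and 18.1 CPM, and neither of these passed an unadjusted p of 0.05. For Col6a1, Col6a2 and Col6a3 the control with the most counts was control 3, and that with the fewest was control 1.

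The summed level of the 8 basement membrane genes was lower in the dorsal mutants, although Col4a3, Col4a4 and Col4a5 had higher mutant means. The genes summed to 639, 675, 1367 and 737 CPM in dorsal controls and 521, 204, 474, 207 and 349.6 CPM in dorsal mutants, without overlap. Col18a1, whose C-terminal fragment is endostatin, was at 273, 315, 409.8 and 432 CPM in controls and 238, 71.8, 137, 187 and 143 CPM in mutants. These groups did not overlap, and the log2 fold change was -1.08 ± 0.36 (SE), with an unadjusted p of 0.0118 and an adjusted p of 0.918 (edgeR). Col4a1, which with Col4a2 forms the common type IV network, was at 217, 209, 683 and 111 CPM and 44.8, 52.2, 101, 0.138 and 108 CPM. The lowest control lay just above the highest mutant, mutant 4 was near 0, and the unadjusted p was 0.075. Col4a2 was at 107, 86.8, 146 and 124 CPM in controls and 159, 24.1, 120.1, 5.59 and 4.79 CPM in mutants. Mutant 1 lay above all controls and mutant 3 among them, which is not the case for Col4a1, and the log2 fold change was -3.29 ± 1.21 (SE), with an unadjusted p of 0.019 and an adjusted p of 0.918. That value rests on the batch term, since without it the log2 fold change was -0.88 with an adjusted p of 0.933.

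The less common type IV chains differed in direction. Col4a6 had a lower mean in the dorsal mutants, as Col4a1 did, and Col4a3, Col4a4 and Col4a5 had higher means. Col4a5 was at 39.9, 2.79, 18.9 and 22 CPM in dorsal controls and 51.7, 25.6, 69.4, 14.7 and 89.5 CPM in dorsal mutants, and its neighbour Col4a6 at 0, 44.3, 99.7 and 38.5 CPM and 18.7, 7.09, 1.63, 0 and 0 CPM. Col4a3, a chain of specialised basement membranes such as those of the kidney and the eye, was at 13.6 and 32.5 CPM in dorsal mutants 2 and 3 and at 0 in the other dorsal mutants. Its head-to-head neighbour Col4a4 was at 1.74, 9.66, 4.81, 0 and 0 CPM in the same 5 libraries and at 11.2 CPM in dorsal control 2. In the ventral mutants both genes had counts in embryo 2 only, at 1.17 and 3.01 CPM, and neither had a count in any axon library. None of these 4 genes passed an unadjusted p of 0.05 in the dorsal region. Col15a1 was at 1.37, 5.21, 9.5 and 10.2 CPM in dorsal controls and 7.52, 0, 8.41, 0 and 4.12 CPM in dorsal mutants. Endothelial markers summed to 273 to 488 CPM in dorsal controls and 64.3 to 575 CPM in dorsal mutants, which overlap.

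Col8a1, a network-forming collagen known from the basement membranes of the cornea and of vessels (chr16:57624258-57754737, minus strand), ran opposite to most members. It measured 5.9, 31.3, 0.059 and 13.9 CPM in dorsal controls 1 to 4 and 129, 161, 489, 46.6 and 83.6 CPM in dorsal mutants 1 to 5. All mutants lay above all controls, and mutant 3 was the highest. The means were 12.8 ± 13.6 CPM (SD, n = 4) and 182 ± 177 CPM (SD, n = 5), and the log2 fold change was 3.18 ± 1.36 (SE), with an unadjusted p of 0.0379 and an adjusted p of 0.918 (edgeR). Leaving out each library in turn gave 2.14 to 4.08, the smallest without control 1, the only control of batch A. Its partner Col8a2 was not higher, at 0, 6.64, 72.7 and 1.21 CPM in controls and 0, 0, 0.141, 2.41 and 0 CPM in mutants.

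The transmembrane genes and Col26a1 were lower or overlapping. Col26a1, a secreted collagen of uncertain role, was at 133, 109, 79.8 and 109 CPM in dorsal controls and 28.4, 0, 0, 23 and 23.4 CPM in dorsal mutants, without overlap, with an unadjusted p of 0.0945. Col23a1 was at 32.2, 181, 85.7 and 21.3 CPM and 29.4, 45.8, 0, 0.069 and 0.465 CPM, and the mutants near 0 were embryos 3, 4 and 5. Col13a1 reached 52.4 CPM in controls and 2.48 CPM in mutants, and Col25a1 41.8 and 0.332 CPM.

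**Figure D5:**
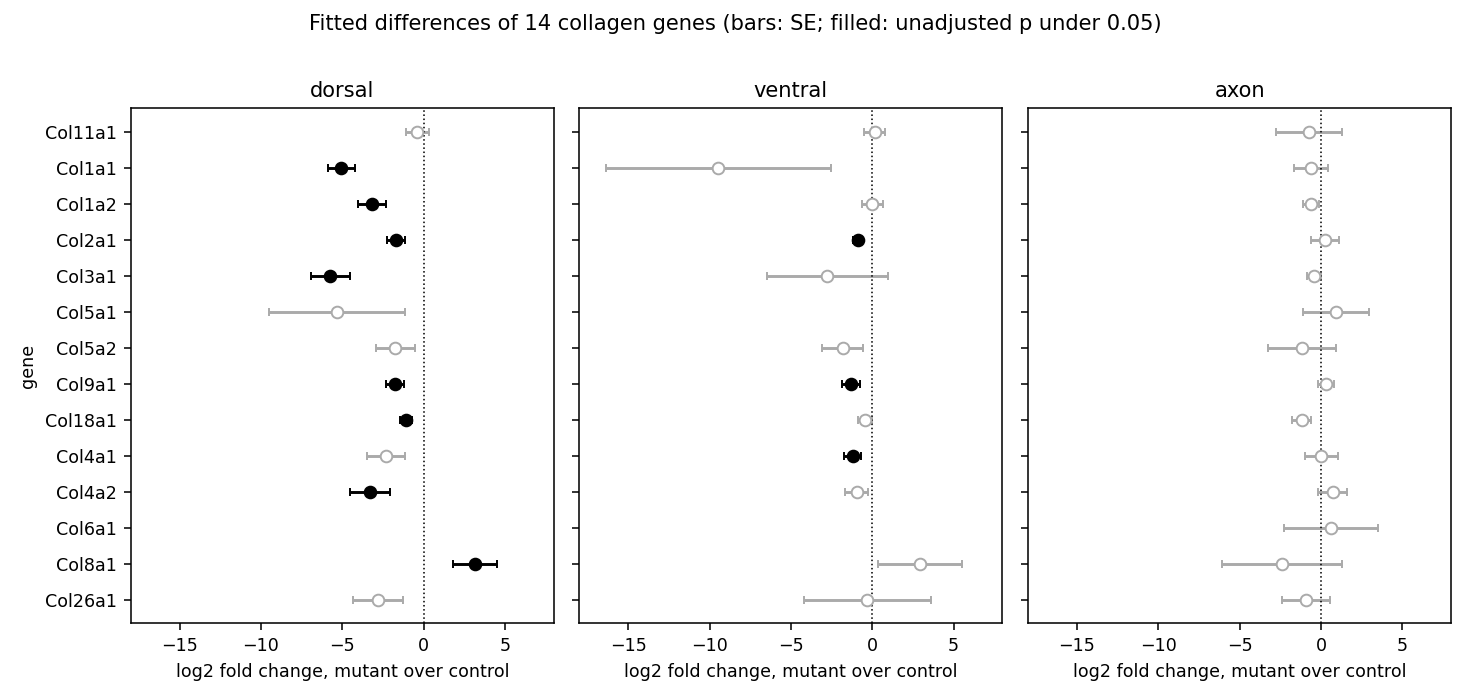
Fitted log2 fold changes of mutant over control (x axis, edgeR, bars 1 SE) for the 14 members with a mean of at least 100 CPM in a group, in the dorsal, ventral and axon regions. Filled points have an unadjusted p under 0.05, and none has an adjusted p under 0.05. Col6a1 in the dorsal and ventral regions, where the mutants are at the floor, and Col5a1 in the ventral region, whose fit gave no usable error, are not drawn.

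In the ventral region fewer members differed between the genotypes at a small p. edgeR called 0 of the 34 members tested, as it called 0 of 16139 genes (0%), and DESeq2 called 1 (Col1a1, against 2.12% of genes). At an unadjusted p under 0.05, 3 members were lower (Col2a1, Col9a1 and Col4a1) and none higher, against 1.91% and 1.28% of genes. With single libraries left out there were 0 to 4 such members, 0 without control 1 and 1 without mutant 4. The log2 fold change was below 0 for 23 of 34 members, against 53.2% of genes, with a median of -0.85 against -0.08 for all genes. Col2a1 was at 397, 414, 291 and 346 CPM in ventral controls and 145, 161, 270.2, 171 and 240.3 CPM in ventral mutants. It was the only member without overlap, against 0.706% of genes lower and 0.52% higher in all mutants, and its log2 fold change was -0.89 ± 0.27 (SE), with an unadjusted p of 0.00768 and an adjusted p of 0.999. Col9a1 was at 300.2, 256, 599 and 377 CPM and 274, 55.1, 46.1, 130.0 and 201 CPM, and mutant 1 lay among the controls. Its log2 fold change was -1.32 ± 0.54 (SE), with an unadjusted p of 0.0316 and an adjusted p of 0.999. Col4a1 was at 111, 127, 178 and 53.5 CPM and 30.6, 68.2, 29.7, 64.2 and 52.8 CPM, and the log2 fold change was -1.20 ± 0.53 (SE), with an unadjusted p of 0.0429 and an adjusted p of 0.999.

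The type I and III genes had lower means in the ventral than in the dorsal controls. In the mutants this held for Col1a1 and Col3a1, while Col1a2 had a mean of 63.3 CPM ventrally and 46.7 CPM dorsally. Col1a2 was at 28.8, 45.7, 127 and 115 CPM in ventral controls and 47.8, 85.1, 50.3, 81.1 and 52.3 CPM in ventral mutants, with a log2 fold change of 0.01 ± 0.65 (SE). Col1a1 was at 0.46, 0, 66.1 and 7.46 CPM and 4.16, 0, 1.06, 0 and 0 CPM, and Col3a1 at 0.204, 35.3, 579 and 6.15 CPM and 1.23, 0, 65, 2.02 and 22 CPM. Control 3 held most of the Col1a1 and Col3a1 counts of the ventral controls, as it did in the dorsal region. The mesenchyme markers followed, at 26.3, 44.7, 548 and 54.2 CPM in ventral controls and 31.4, 24.7, 65.3, 23.2 and 8.08 CPM in ventral mutants, with Twist2 and Prrx2 at 0 in both groups and Twist1 and Foxc1 at 0 in the mutants. Their part in these values was not tested. Col18a1 was at 169, 366, 186 and 320.3 CPM and 169, 205, 121, 297 and 68.2 CPM, which overlap, and Col8a1 was at 13.8, 0.381, 0 and 0.311 CPM and 31, 5.47, 0.324, 1.39 and 19.8 CPM. Col5a2 ranged from 4.65 to 128 CPM in controls and 0.284 to 95.9 CPM in mutants, and Col11a1, Col26a1, Col4a2 and Col5a1 overlapped as well. Type VI genes summed to 5.42 to 43.1 CPM in controls and 0 to 10.4 CPM in mutants.

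In the axon region edgeR detected no difference between the genotypes. It called 0 of 32 members at an adjusted p under 0.05 (0% of 14977 genes) and 0 at an unadjusted p under 0.05 (3.55% of genes), and DESeq2 called 1 (Col27a1, against 8.23% of genes). With single libraries left out, 0 or 1 member reached an unadjusted p under 0.05. The log2 fold change was below 0 for 16 of 32 members, against 57.7% of genes, with a median of -0.19 against -0.29. In 0 members were the genotypes without overlap, against 1.04% of genes lower and 0.24% higher in all mutants. Col3a1, the leading axon member, was at 873, 161, 586 and 152 CPM in axon controls and 540.1, 742, 469.6, 341 and 150.5 CPM in axon mutants, with a log2 fold change of -0.44 ± 0.44 (SE). Col1a2 was at 398, 131, 218 and 129 CPM and 89.9, 422, 312, 86.8 and 115 CPM, and Col1a1 at 222, 15.8, 23.9 and 68.2 CPM and 5.09, 147, 50.6, 31.1 and 49 CPM. For these genes the dorsal mutants lay below the axon mutants of the same embryos. Col18a1 had the smallest unadjusted p of the named members, 0.0595 (edgeR with the batch term), at 374, 97.2, 70.1 and 177 CPM and 462, 275, 202, 17.1 and 52 CPM. These groups overlapped, with means of 180 ± 137 CPM (SD, n = 4) and 202 ± 180 CPM (SD, n = 5). In batch B every mutant lay below every control, and in batch A the control lay among the mutants. Col4a1 was at 146, 171, 157 and 85 CPM and 358, 334, 92.8, 1.23 and 204 CPM, with mutant 4 near 0 as in the dorsal region. The mesenchyme markers summed to 94.2 to 1060.4 CPM in axon controls and 170.4 to 953 CPM in axon mutants.

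Whether the genotype difference itself changed between regions was tested in a model of all 27 libraries with the embryo as a block. edgeR called 0 members for dorsal against ventral, dorsal against axon and ventral against axon, where it called 1, 2 and 0 of 16330 genes (0.00612%, 0.0122% and 0%), and DESeq2 called 4, 6 and 2 members, against 6.02%, 11.3% and 10.1% of genes. At an unadjusted p under 0.05 there were 3, 6 and 4 members, against 2.29%, 4.95% and 3.89% of genes. These counts ran from 1 to 4, 2 to 6 and 1 to 5 with single embryos left out. The lowest were without control 2 for the first, without control 2 or 4 for the second (3 without mutant 2) and without control 3 or mutant 3 for the third (2 without control 2, control 4 or mutant 5). Col1a2 had the smallest p in the first of these, with a difference of log2 fold changes of -3.53 ± 1.05 (SE), with an unadjusted p of 0.00302 and an adjusted p of 1. It had the smallest p in the second as well, at -3.34 ± 1.09 (SE), with an unadjusted p of 0.00595 and an adjusted p of 0.848. Col3a1, Col2a1, Col4a2, Col6a1 and Col23a1 had lower dorsal than axon log2 fold changes at an unadjusted p under 0.05, and Col3a1 differed by -6.84 ± 3.08 (SE), with an unadjusted p of 0.0418 and an adjusted p of 0.961. At the same unadjusted threshold Col14a1 and Col16a1 had lower dorsal than ventral log2 fold changes. Between ventral and axon, Col9a1, Col15a1 and Col8a2 had lower ventral ones and Col16a1 a higher one. Of these Col9a1 was at -1.74 ± 0.75 (SE) with an adjusted p of 1. Some rested on few libraries, since Col14a1 had counts in 1 of 5 dorsal mutants and Col8a2 in 1 of 5 axon mutants. A mutant effect confined to the dorsal region was therefore not shown for any member by edgeR.

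The next comparisons asked how the regions differed within control embryos, where each embryo gave all 3 regions and served as its own block. The fibrillar genes Col1a1, Col1a2 and Col3a1 were higher in the dorsal than in the ventral piece of each control embryo. edgeR called 0 of 35 members between dorsal and ventral controls (0% of 16231 genes) and DESeq2 called 6 (6.91% of genes). At an unadjusted p under 0.05, 6 members were higher dorsally (Col1a2, Col4a1, Col3a1, Col1a1, Col16a1 and Col6a1) and none lower, against 1.26% and 1.55% of genes. Col1a2, Col4a1, Col3a1 and Col1a1 were each higher in the dorsal piece in 4 of 4 embryos. The log2 fold change of Col1a2 was 2.85 ± 0.75 (SE), with an unadjusted p of 0.00326 and an adjusted p of 1, and that of Col3a1 was 4.82 ± 1.43 (SE) with an adjusted p of 1. Col2a1 and Col4a5 ran the other way, each being lower in the dorsal piece in 4 of 4 embryos, and neither reached an unadjusted p under 0.05 (edgeR). The mesenchyme markers summed to 1589 ± 1204 CPM (SD, n = 4) in dorsal and 168 ± 253 CPM (SD, n = 4) in ventral controls. Endothelial markers summed to 273 to 488 CPM dorsally and 44.6 to 208 CPM ventrally, and mural cell markers to 117 to 266 CPM and 6.39 to 99.4 CPM, without overlap. The part of these markers was not tested.

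Between dorsal and axon controls edgeR called 0 members (0.222% of genes) and DESeq2 called 6 (13.3% of genes), and 3 were higher (Col9a1, Col15a1 and Col8a2) and 0 lower dorsally at an unadjusted p under 0.05, against 3.03% and 2.66% of genes. Leaving out control 1 gave 6 such members and leaving out control 4 gave 1. On the log2 scale Col9a1 differed by 1.69 ± 0.55 (SE), with an unadjusted p of 0.0108 and an adjusted p of 0.565, and it was higher in the dorsal piece in 3 of 4 embryos. Between ventral and axon controls edgeR called 0 members (0.0554% of genes), DESeq2 called 3 (11.4% of genes), and at an unadjusted p under 0.05, 2 were lower and 2 higher ventrally, against 1.71% and 2.58% of genes. Their number was 2, 0, 5 and 1 without control 1, 2, 3 or 4. Of these Col3a1 and Col1a2 were lower in the ventral piece in 4 of 4 embryos, at -3.91 ± 1.55 (SE) and -1.85 ± 0.74 (SE), and Col9a1 and Col12a1 were higher. Col9a1 was higher in the ventral piece in 4 of 4 embryos. Its 4 axon controls held 152, 150.1, 141 and 119 CPM, a narrower range than in either other control group. Mitochondrial genes took 8.64 to 15.4% of counts in axon controls, against 4.43 to 5.63% in dorsal and 3.72 to 7.61% in ventral controls, and their part in the comparisons with the axon region was not tested.

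Within the mutants, Col8a1 was the only member called by edgeR, higher in the dorsal than in the axon region (11.13 ± 1.88 (SE) on the log2 scale, adjusted p 0.0155, higher in 5 of 5 embryos), where 0.634% of 16235 genes were called. The axon mutants held 0.916, 0, 0.136, 0 and 0 CPM of Col8a1, at most 16 counts in a library, so the size of the fold depends on few reads. The call was kept without mutant 1, and the adjusted p was over 0.05 without mutant 2, 3, 4 or 5, which left 0 members called, with a log2 fold change of 10.58 to 12.41. Col8a1 was also higher in the dorsal than in the ventral piece, by 4.56 ± 1.48 (SE), with an unadjusted p of 0.00873 and an adjusted p of 1, and in the ventral than in the axon piece, by 6.58 ± 1.61 (SE), with an unadjusted p of 0.00128 and an adjusted p of 0.133, each in 5 of 5 embryos. The order of its mutant levels was dorsal, ventral, axon, and in controls the means were 12.8 ± 13.6 CPM (SD, n = 4) dorsally, 3.64 ± 6.81 CPM (SD, n = 4) ventrally and 0.115 ± 0.229 CPM (SD, n = 4) in the axon region.

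Col3a1, Col1a2, Col6a3 and Col4a2 were lower in the dorsal than in the axon mutants at an unadjusted p under 0.05, in 5 of 5 embryos each. The log2 fold change of Col1a2 was -2.36 ± 0.75 (SE), with an unadjusted p of 0.00752 and an adjusted p of 0.243, that of Col3a1 was -5.98 ± 2.17 (SE) and that of Col6a3 -5.57 ± 2.08 (SE). In all, 3 members were higher (Col8a1, Col9a3 and Col4a4) and 5 lower dorsally, against 8.94% and 2.33% of genes. The remaining lower member was Col2a1, in 4 of 5 embryos. Leaving out 1 embryo gave 5 or 6 such members, with 5 without mutant 2 or 5. DESeq2 called 7 members, against 20.7% of genes. Between dorsal and ventral mutants edgeR called 0 members (0.0246% of genes), DESeq2 called 3 (5.3% of genes), and at an unadjusted p under 0.05, 3 were higher (Col8a1, Col9a3 and Col15a1) and 1 lower (Col2a1) dorsally, against 1.85% and 1.68% of genes. That total of 4 became 2 without mutant 3 or 5. Col2a1 was lower in the dorsal piece in 5 of 5 embryos, with a fitted difference of -1.75 ± 0.67 (SE), with an unadjusted p of 0.021 and an adjusted p of 1. Between ventral and axon mutants edgeR called 0 members (0.517% of genes) and DESeq2 called 7 (19.4% of genes), and at an unadjusted p under 0.05, 4 were lower and 2 higher (Col8a1 and Col24a1) ventrally, against 2.3% and 8.11% of genes. The lower ones were Col6a3, Col3a1, Col1a1 and Col1a2, each in 5 of 5 embryos. The total of 6 ran from 4 to 7 with single embryos left out. The mesenchyme markers in these libraries were 162 to 388 CPM in the dorsal, 8.08 to 65.3 CPM in the ventral and 170.4 to 953 CPM in the axon mutants. Endothelial markers were 64.3 to 575 CPM, 16.9 to 115 CPM and 37.2 to 471 CPM, and 4 of the 9 were lower in the ventral than in the axon mutants at an unadjusted p under 0.05. Mitochondrial genes took 4.19 to 7.63%, 4.26 to 5.61% and 7.49 to 12.2% of counts. The part of these values was not tested.

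Genes that make, process and bind collagen were set beside the members in the dorsal comparison, where 2.68% of all genes were lower and as many higher at an unadjusted p under 0.05, 51.4% had a log2 fold change below 0 and the median was -0.04. Of 22 biosynthesis genes (hydroxylases, chaperones and export factors), 20 were tested, 1 was lower and 0 were higher at an unadjusted p under 0.05, and 19 of 20 log2 fold changes were below 0, with a median of -1.29. The lower gene was Sparc, a collagen-binding matricellular protein, at 1909.8 ± 230.0 CPM (SD, n = 4) in controls and 969.8 ± 316 CPM (SD, n = 5) in mutants (-0.97 ± 0.26 (SE), unadjusted p 0.00271, adjusted p 0.794, edgeR). Serpinh1, the collagen chaperone HSP47, was at 210.4 ± 44.9 CPM (SD, n = 4) and 227 ± 144 CPM (SD, n = 5). Of 12 processing and crosslinking genes, 10 were tested, with 1 lower (Lox) and 1 higher (Pcolce2) and a median of -1.68. Lox, the lysyl oxidase that crosslinks fibrils, was at 242 ± 226 CPM (SD, n = 4) and 6.46 ± 11.2 CPM (SD, n = 5) (-4.01 ± 1.53 (SE), unadjusted p 0.0223, adjusted p 0.918, edgeR). Of 7 receptor genes, all were tested, 1 was lower (Itga11, a fibrillar collagen integrin) and 0 higher, with a median of -1.94. None of these genes had an adjusted p under 0.05 in the dorsal comparison.

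Sparc, singled out after its values were seen, differed between regions in the mutants. In the axon region it was at 1317 ± 227 CPM (SD, n = 4) in controls and 2514 ± 692 CPM (SD, n = 5) in mutants (0.79 ± 0.20 (SE), unadjusted p 0.00186, adjusted p 0.88, edgeR), the opposite sign to the dorsal region. The difference of the mutant effect between the dorsal and axon regions was called by edgeR, at -1.91 ± 0.24 (SE), unadjusted p 1.04e-07, adjusted p 0.00085, and leaving out each embryo in turn kept the adjusted p between 0.000372 and 0.0177. It was 1 of 2 genes called there of 16330. Within the mutants Sparc was lower in the dorsal than in the axon region (-1.56 ± 0.18 (SE), unadjusted p 6.74e-07, adjusted p 0.000842, edgeR), with an adjusted p of at most 0.0137 over the left-out embryos. It was also lower in the ventral than in the axon region (-1.01 ± 0.17 (SE), unadjusted p 5.79e-05, adjusted p 0.0174, edgeR), a call that was lost without mutant 1, 2, 3 or 5 and in a fit of these 2 regions alone, with an adjusted p of up to 0.165.

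Of the 9 symbols below the filter, Col5a3 and Col11a2 are fibrillar, Col20a1 is a FACIT gene, Col6a4 and Col6a5 are type VI, Col7a1 (the anchoring fibril of skin) and Col10a1 (of hypertrophic cartilage) are in the network and anchoring class, Col17a1 is transmembrane and Col28a1 is in the remaining class. Each had more than 10 counts in fewer than 3 libraries, and they were not tested.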

How the data were processed

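RNA was measured in 27 laser-captured libraries by Geo-seq, in which cDNA from small tissue pieces is amplified by PCR. The authors deposited raw read counts per gene with no scaling, which they made with the Seq2Science pipeline from single-end reads aligned to mm10 with STAR and counted with HTSeq. Versions, annotation release and strand setting are not given in the sources used here. Symbols, exons and positions came from GENCODE M21 on that build, to which 55227 of the 55487 identifiers matched. The 260 others held 0.00287% of the counts. No column of per-sample values was left unused (0). No 2 libraries held identical counts (0 pairs).

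CPM values were the deposited counts divided by the library total. Genes passing a filter of over 10 counts in 3 or more libraries were tested with edgeR 4.0.16 in R 4.3.3 (quasi-likelihood F-test, two-sided, robust, legacy setting, TMM scaling) and called where p, adjusted over all genes by Benjamini-Hochberg, was under 0.05 and the log2 fold change was beyond 0.58 in either direction. For each region, mutants were tested against controls in its 9 libraries, with a batch term in the model. A gene with no usable counts in a region was not tested there. Regions were compared within a genotype, and genotype differences between regions over all 27 libraries, with the embryo as a block, because the methods describe 3 captured regions per embryo and the titles number the libraries of each region 1 to 4 (controls) and 1 to 5 (mutants). That a shared number within a genotype marks the same embryo was read from these numbers and is not stated in words. The deviations of same-embryo libraries from their group means correlated by -0.0195 to 0.115 over 27 pairs. Standard errors are approximate, computed as the log2 fold change over the square root of F. The steps were tested on simulated data. DESeq2 1.42.0 and other scalings, filters, covariates and left-out libraries were tried as alternatives. A floor of 3 counts per library was used where a group had no more than 3 counts in any library.

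Values in every dorsal library were given for the 14 members with a mean of at least 100 CPM in a group. For the ventral and axon regions, values in every library were given for only some of the 14. Further members were named where the genotypes did not overlap or where a comparison called them, and others were named after their values were seen. The members and lists were chosen with earlier results of these data known. Motifs and upstream sequences came from RefSeq tables of GRCm38.p6. 1 gene of the marker lists is counted in the sums, and its own values are not reported here.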

Additional observations from a re-analysis of the deposited data

Results flagged for a closer look

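Within the 6 groups, the sums of the 7 classes, the sum of all members and the 14 most abundant members gave 132 sets of 4 or 5 libraries. In 15 of them 1 library lay farther from the rest than Dixon's test allows at the 95% level. Chance gives this in about 1 of 20 sets if they are independent and normally spread. These sets share values, as the network sum does with Col8a1, and some are mostly 0, so that rate is no reference for the 15.

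Ventral control 3 stood above the other ventral controls for the fibrillar sum (1369 CPM), Col3a1 (579 CPM), Col1a1 (66.1 CPM) and Col6a1 (23.1 CPM). The mesenchyme markers of this library summed to 548 CPM, against 26.3 to 54.2 CPM in the other 3 ventral controls. Dorsal control 3 of the same embryo stood above the other dorsal controls for the basement membrane sum (1367 CPM). Among the dorsal mutants, embryo 3 was highest for Col8a1 (489 CPM) and with it for the network sum (489 CPM).

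The remaining sets were mostly near 0. Col8a1 reached 13.8 CPM in ventral control 1, 0.458 CPM in axon control 4 (the network sum there was also 0.458 CPM) and 0.916 CPM in axon mutant 1. The network sum of axon mutant 3 was 46.1 CPM, nearly all from Col8a2. In the ventral mutants, Col1a1 was highest in embryo 1 (4.16 CPM), Col6a1 was detected in embryo 1 alone (0.0473 CPM, 1 read), and Col5a2 was highest in embryo 4 (95.9 CPM).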

How the results depend on the processing

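The 59 fitted differences of single members with an unadjusted p under 0.05 in the main fit were recomputed, which gave 750 alternative values. Of these values, 697 kept their direction and their side of the threshold for a call, and 49 kept the direction and passed it. The other 4 kept the direction and no longer passed it (Col8a1, dorsal against axon mutants, without mutant 2, 3, 4 or 5). None changed direction. Only Col8a1 in dorsal against axon mutants was called in the main fit, so for the other differences a kept side means that they stayed uncalled. The differences were selected by their p in the same data, so the kept directions do not measure how robust they are. The class sums moved by less than the SD under TMM scaling or the group median.

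Counts of called members depended on the tool. With DESeq2 they were 9, 1 and 1 for the genotypes in the dorsal, ventral and axon regions, 6, 6 and 3 for the regions of controls (dorsal against ventral, dorsal against axon and ventral against axon), 3, 7 and 7 for those of mutants, and 4, 6 and 2 for the differences of the genotype effect, where edgeR gave 0 throughout except for 1 in dorsal against axon mutants. Without the count filter the dorsal genotype count was 7 (0.385% of genes). Without the legacy setting it was 3, and it was 2 for dorsal against axon and 3 for ventral against axon mutants (1.23% and 0.986% of genes). The cause was not tested. Leaving out each library in turn gave 0 called members in every comparison but dorsal against axon mutants, which ran from 0 to 1. Members at an unadjusted p under 0.05 ran from 11 to 13 in those runs for the genotypes in the dorsal region, 0 to 4 in the ventral and 0 to 1 in the axon region. For dorsal against ventral, dorsal against axon and ventral against axon they ran from 4 to 8, 1 to 6 and 0 to 5 in controls, 2 to 4, 5 to 6 and 4 to 7 in mutants, and 1 to 4, 2 to 6 and 1 to 5 for the difference of the genotype effect.

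With the replicate number as a block across genotypes (no source pairs these embryos, and same-numbered libraries correlated by -0.0509 to 0.0279 over 12 pairs) the genotype comparisons called 0 members, as they did without it. With no replicate block the region comparisons called 1 member (Col8a1, dorsal against axon mutants) and the differences of the genotype effect called 0, the same counts as with the embryo as a block.

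Depth limits low members, since 1 read is worth 0.0294 to 0.0917 CPM and most members were at 0 in some libraries.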
